A study of Mus musculus with 24 samples.

Results

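Pla2g2a and 8 other genes that share a chromosome arm stretch with E2f2 were followed through the crypts and villi of mice that kept or lacked the transcription factors E2f1, E2f2 and E2f3. The 9 genes, Pla2g2a, Camk2n1, Capzb, Ece1, Eif4g3, Kdf1, Myom3, Nbl1 and Pafah2, were taken as every probe set that the platform annotation gives to them. They were read by 19 probe sets of the 45037 measured, or 9 genes of 18193. Their choice drew on values of these arrays, and the sources used here do not give which values were used. The differences between mice with and without E2f1-3 are therefore a description and carry no test. The question put to them was whether each gene followed the genotype alike in both compartments, as a stretch of chromosome carried along with a mutant allele would.

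The arrays were Affymetrix mouse arrays of small intestines of mice aged 2 months with the strain label C57BL/6;FVB mixed. All groups had received beta-napthoflavone into the peritoneum 7 days before harvest. There were 8 groups of 3 arrays, crypts and villi of each of 4 genotypes: wild-type (WT), Rb-/- (Rb), E2f1-/-;E2f2-/-;E2f3-/- (TKO) and E2f1-/-;E2f2-/-;E2f3-/-;Rb-/- (QKO). Crypts are the pits of the intestinal lining where cells divide, and villi are the projections lined by the differentiated cells that leave them. The driver of any Cre recombinase and the form of each mutant allele were not given in the sources used here. The labels also leave it unsaid whether a group's 3 arrays stand for 3 animals, so p-values measure the spread between these arrays, which may be technical.

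E2F proteins bind the promoters of genes for DNA replication and the cell cycle, and the retinoblastoma protein Rb holds them in check. A gene targeted in cells of one mouse strain keeps flanking DNA of that strain through later crosses, so neighbours of a targeted gene can differ between mutant and control animals by inherited sequence alone. Pla2g2a is a well known strain marker: it encodes a secreted phospholipase A2 of Paneth cells, the defensin-producing cells at the crypt base, and C57BL/6 mice carry a frameshifted allele of it that is linked to the Mom1 modifier of intestinal tumours. The RefSeq gene table of GRCm38.p6, an assembly of C57BL/6J, lists Pla2g2a as a transcribed pseudogene and the other 8 genes as protein coding.

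In that table all 9 genes lie on chromosome 4 with E2f2. The array files name no build, so only the order of genes was used. Counted in genes measured on these arrays, Kdf1 lay 56 genes before E2f2, Pafah2 32 before and Myom3 10 before. On the other side Ece1 lay 24 genes after E2f2, Eif4g3 26, Camk2n1 35, Pla2g2a 41, Nbl1 47 and Capzb 49.

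The RefSeq promoter table (GRCm38.p6) held 14 windows for 7 of the 9 genes, each from 250 bases before to 50 bases after a listed start. Windows were searched on both strands for TTTCCCGC and TTTGGCGC, 2 forms of the E2F site that do not overlap each other. Of all 32851 windows, 514 (1.565%) held a match, and among those of the 9 genes 1 did, a window of Ece1. Windows follow 5′ to 3′ on the gene's strand, with any match in capitals: E2f2 as the targeted locus, Ece1 for its match, and Pafah2 and Nbl1 as a gene higher and a gene lower without E2f1-3 in both compartments.
E2f2, chr4:136172024-136172323, strand +: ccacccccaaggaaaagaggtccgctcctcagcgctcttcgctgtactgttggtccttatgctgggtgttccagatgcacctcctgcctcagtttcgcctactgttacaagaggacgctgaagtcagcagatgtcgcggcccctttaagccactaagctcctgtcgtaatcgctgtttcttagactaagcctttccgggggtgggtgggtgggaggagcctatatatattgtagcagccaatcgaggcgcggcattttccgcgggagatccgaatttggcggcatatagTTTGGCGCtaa
Ece1, chr4:137913308-137913607, strand +: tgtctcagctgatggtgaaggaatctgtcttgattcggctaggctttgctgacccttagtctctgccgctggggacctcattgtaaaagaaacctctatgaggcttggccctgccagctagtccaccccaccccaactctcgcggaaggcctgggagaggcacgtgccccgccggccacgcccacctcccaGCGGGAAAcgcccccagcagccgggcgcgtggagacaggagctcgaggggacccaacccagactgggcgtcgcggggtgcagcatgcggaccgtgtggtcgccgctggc
Pafah2, chr4:134396070-134396369, strand +: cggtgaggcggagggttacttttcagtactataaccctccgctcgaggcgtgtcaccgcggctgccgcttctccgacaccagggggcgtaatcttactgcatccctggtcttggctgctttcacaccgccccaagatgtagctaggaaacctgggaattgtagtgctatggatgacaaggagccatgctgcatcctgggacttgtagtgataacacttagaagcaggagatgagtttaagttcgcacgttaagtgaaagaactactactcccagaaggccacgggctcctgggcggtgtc
Nbl1, chr4:139092921-139093220, strand -: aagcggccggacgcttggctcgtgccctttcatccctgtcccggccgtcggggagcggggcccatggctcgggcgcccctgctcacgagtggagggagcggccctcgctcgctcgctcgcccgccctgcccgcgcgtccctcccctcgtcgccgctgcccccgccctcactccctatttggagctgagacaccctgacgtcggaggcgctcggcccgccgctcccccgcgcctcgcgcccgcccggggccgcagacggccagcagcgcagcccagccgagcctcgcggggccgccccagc
The E2f2 window ended close to a TTTGGCGC match. The Ece1 window held GCGGGAAA, the reverse complement of TTTCCCGC, while the windows shown for Pafah2 and Nbl1 held neither form. A match describes these letters only.

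Marker list levels are the log2 of the summed signal of the genes, in which the brightest genes weigh most. Stem cell markers fitted the labelled compartments: the level of 5 stem cell genes was 13.45 to 13.77 on WT crypt arrays and 11.96 to 12.48 on WT villus arrays. Crypts and villi stood closer in Rb (12.8 to 13.66 and 12.39 to 12.75) and TKO (13.41 to 13.62 and 12.43 to 13.16). In QKO they read 13.21 to 13.44 and 11.88 to 12.52. Rb1 went against the label on 2 arrays. Its probe set 1417850_at read 10.31, 10.59 and 8.46 on the arrays labelled WT crypts and 8.23, 10.25 and 8.87 on those labelled Rb crypts. Some results that rest on those labelled WT crypts 3 or Rb crypts 2 are therefore also given without this pair. Rb minus WT in crypts and the crypt differences by E2f1-3 status are given only with both arrays in place. The mean of 24 probe sets for poly-A control transcripts was 5.44 to 7.13 on the 12 WT and Rb arrays and 9.70 to 11.89 on the 12 TKO and QKO arrays, so E2f1-3 status and whatever sets these controls cannot be told apart here. By Eif2s3y, a Y-linked gene, the QKO arrays were male, the WT arrays and Rb crypt arrays female, and Rb villi mixed (1 and 3 male, 2 female). In TKO 2 of 3 arrays of each compartment were male. Some marker lists of other cells differed between genotypes too. In QKO minus Rb in crypts 4 of 4 pancreas genes were called higher (summed level 8.51 to 8.75 in Rb and 9.27 to 11.37 in QKO). In QKO minus Rb in villi the genes called higher were 3 of 7 T cell genes (12.28 to 13.23 in Rb and 13.63 to 14.54 in QKO), 3 of 6 fibroblast genes (7.41 to 9.17 and 9.09 to 11.85), 2 of 4 neuron genes (6.11 to 6.16 and 7.07 to 7.53), 2 of 5 macrophage genes (10.37 to 11.21 and 10.71 to 11.94), 1 of 5 endothelial genes (6.74 to 6.80 and 6.91 to 7.27) and 1 of 5 B and plasma cell genes (8.50 to 9.07 and 8.83 to 9.78). Of these, the fibroblast, macrophage and B and plasma cell ranges overlapped. T cell genes were lower in TKO crypts (10.77 to 11.07) than in WT crypts (11.65 to 13.15), with 1 of 7 called. Over all genes, by the brightest probe set of each, 5.46% were called in either direction in TKO minus WT in crypts. In QKO minus Rb that share was 16.1% in crypts and 20.5% in villi, so 1 of 5 lies near it. No smooth muscle gene of 6 was called in TKO minus WT or QKO minus Rb. The array medians were 4.97 to 5.26, highest on QKO crypts 2 and QKO villi 3. The part of these in the differences between genotypes was not tested.

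Pla2g2a was among the brightest genes in mice with E2f1-3 and far dimmer in mice without them, in crypts and in villi. On the deposited log2 scale, 1450128_at read 14.32, 14.43 and 14.42 in WT crypts and 14.29, 14.40 and 13.64 in Rb crypts. It read 8.92, 9.14 and 8.57 in TKO crypts and 8.49, 8.16 and 8.01 in QKO crypts. The ranges stood more than 4 log2 units apart. In villi it read 12.20, 13.36 and 12.64 in WT and 12.64, 12.85 and 13.49 in Rb, against 8.36, 8.85 and 6.48 in TKO and 7.20, 6.03 and 5.89 in QKO. No villus array without E2f1-3 reached the lowest with them, and TKO villi 3 lay well under the other TKO arrays.

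**Figure D1:**
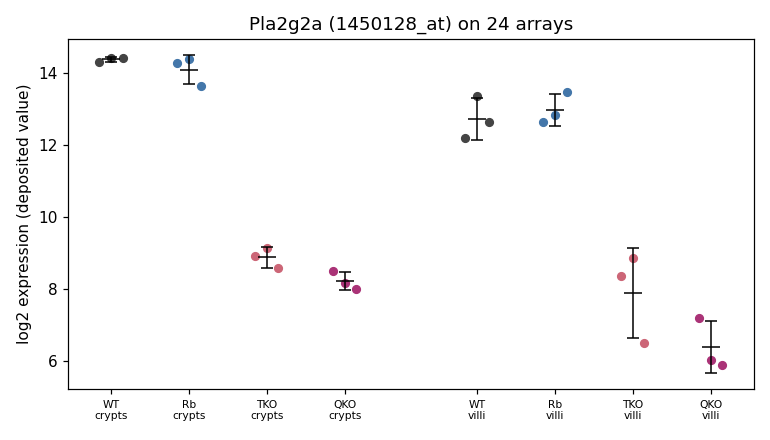
Deposited log2 value of Pla2g2a (vertical axis) on each of the 24 arrays by group (horizontal axis); points are arrays and bars the mean ± SD of 3. All 12 WT and Rb arrays lie at or above 12.20 and all 12 TKO and QKO arrays at or below 9.14.

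In crypts the log2 difference of TKO from WT was -5.51 ± 0.43 (SE of the fit, n = 3 arrays a group), a 45.6-fold lower signal, and that of QKO from Rb was -5.89 ± 0.43 (59.1-fold). The same differences in villi were -4.84 ± 0.43 (28.6-fold) and -6.62 ± 0.43 (98.3-fold). The 4 differences thus shared a direction and lay within about 2 log2 units of one another. QKO minus Rb less TKO minus WT was -1.78 ± 0.61 in villi (95% interval -3.05 to -0.51). In crypts it was -0.37 ± 0.61 (-1.64 to 0.9). The villus difference less the crypt difference, from the limma fit over all 45037 probe sets, was 0.67 ± 0.61 for TKO minus WT (95% interval -0.60 to 1.94) and -0.73 ± 0.61 for QKO minus Rb (-2.0 to 0.54). Since likeness between the compartments may have entered the choice of genes, such values are a description for all 9 genes and carry no test.

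Pla2g2a passed no test for loss of Rb where E2f1-3 were kept. In crypts that comparison called 0 of 45037 probe sets and holds the 2 arrays whose Rb1 went against the label. Rb minus WT was -0.28 ± 0.43 in crypts (-1.18 to 0.62, Benjamini-Hochberg adjusted p = 1 by limma) and 0.26 ± 0.43 in villi (-0.63 to 1.16, adjusted p = 0.78). Among mice without E2f1-3, QKO was below TKO in villi by 1.52 ± 0.43 log2 units (difference -1.52, interval -2.42 to -0.62, adjusted p = 0.044), and in crypts the difference was -0.66 ± 0.43 (-1.55 to 0.24, adjusted p = 0.53). The villus call was thin: it was lost without TKO villi 1 (-1.29, adjusted p = 0.17), TKO villi 2 (-1.04, adjusted p = 0.26), QKO villi 2 (-1.35, adjusted p = 0.13) or QKO villi 3 (-1.28, adjusted p = 0.16), and without the pair WT crypts 3 and Rb crypts 2 (adjusted p = 0.059). It was also lost with only the groups compared in the fit (adjusted p = 0.31), without QKO crypts 2 and QKO villi 3 (-1.28, adjusted p = 0.17), and with sex as a covariate (-1.46, adjusted p = 0.075). Without TKO villi 3, the lowest TKO array, it was -2.23 (adjusted p = 0.0011).

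Within WT mice the Pla2g2a signal fell from crypts to villi by 1.66 log2 units (difference -1.66 ± 0.43, adjusted p = 0.0055 by limma), and within QKO mice it fell as well (-1.85 ± 0.43, adjusted p = 0.003). In Rb the difference was -1.11 ± 0.43 (adjusted p = 0.097) and in TKO -0.98 ± 0.43 (adjusted p = 0.19). The log2 of the summed signal of 11 measured Paneth genes of a list of 21 went the same way in WT. It was 16.34 to 16.60 in crypts and 15.04 to 15.44 in villi. With E2f1-3 status that sum, in which the brightest genes weigh most, moved less than Pla2g2a. It was 15.85 to 16.12 in TKO crypts and 15.62 to 15.79 in QKO crypts, and in TKO villi (14.95 to 15.97) it overlapped WT villi. Of the 11 Paneth genes, 3 were called lower and 0 higher in TKO minus WT in crypts (median -1.17), and 0 were called in villi (median 0.09). Of 10 goblet cell genes 6 were called lower in TKO minus WT in each compartment, and 1 higher in crypts. Over all genes, by the brightest probe set of each, 5.46% were called in either direction in TKO minus WT in crypts and 8.54% in villi. Their part in the Pla2g2a differences was not tested. In whole crypts and villi, fewer cells of a type and less RNA per cell cannot be told apart.

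Camk2n1, an inhibitor of the calcium/calmodulin kinase CaMKII, was read by a pair of probe sets that moved in opposite directions. The brighter one, 1456609_at, read 8.98, 9.47 and 9.24 in WT crypts, 8.95, 8.97 and 9.56 in Rb crypts, 8.57, 7.69 and 7.89 in TKO crypts and 8.39, 8.49 and 8.21 in QKO crypts. In villi it read 10.13, 10.18 and 10.61 in WT, 10.28, 10.25 and 9.79 in Rb, 9.03, 8.50 and 8.63 in TKO and 9.27, 9.11 and 9.06 in QKO. Every array without E2f1-3 lay below every array with them in the same compartment. The differences were -1.18 ± 0.22 in TKO crypts, -1.59 ± 0.22 in TKO villi, -0.80 ± 0.22 in QKO crypts against Rb and -0.96 ± 0.22 in QKO villi against Rb. The dimmer probe set, 1440455_at, read 4.68, 5.56 and 5.28 in WT crypts, 5.48, 5.59 and 5.44 in Rb crypts, 5.96, 5.96 and 5.73 in TKO crypts and 6.52, 6.77 and 6.28 in QKO crypts. Its villus values were 5.42, 5.07 and 4.86 in WT, 5.24, 5.34 and 5.11 in Rb, 6.26, 6.30 and 6.21 in TKO and 6.87, 6.60 and 6.72 in QKO. Here every array without E2f1-3 lay above those with them. Its 4 differences, in the same order, were 0.71 ± 0.18, 1.14 ± 0.18, 1.02 ± 0.18 and 1.5 ± 0.18. A single direction for Camk2n1 can therefore not be given. From crypts to villi, 1456609_at rose in WT (1.08 ± 0.22, adjusted p = 0.0006 by limma), Rb (0.95 ± 0.22, adjusted p = 0.0064) and QKO (0.79 ± 0.22, adjusted p = 0.01), with 0.67 ± 0.22 in TKO (adjusted p = 0.061). With WT crypts 3 and Rb crypts 2 left out the Rb value was 0.85 (adjusted p = 0.055).

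Pafah2, an enzyme that hydrolyses platelet-activating factor and oxidised phospholipids, was higher without E2f1-3. Probe set 1448489_at read 9.41, 9.36 and 9.12 in WT crypts, 9.27, 9.41 and 9.03 in Rb crypts, 9.83, 10.05 and 10.29 in TKO crypts and 10.34, 10.81 and 10.59 in QKO crypts. In villi the values were 9.15, 8.65 and 8.82 in WT, 8.78, 8.74 and 8.57 in Rb, 9.52, 9.76 and 9.92 in TKO and 9.77, 10.31 and 10.18 in QKO. The 2 sets of arrays did not overlap in either compartment. TKO exceeded WT by 0.76 ± 0.17 in crypts and 0.86 ± 0.17 in villi, and QKO exceeded Rb by 1.34 ± 0.17 and 1.39 ± 0.17. Villi less crypts, these differed by 0.10 ± 0.24 (interval -0.40 to 0.60) and 0.04 ± 0.24 (-0.46 to 0.55).

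Capzb encodes the beta subunit of the protein that caps the barbed ends of actin filaments. Its probe set 1424168_a_at read 10.27, 10.21 and 9.90 in WT crypts, 10.10, 10.41 and 10.02 in Rb crypts, 10.75, 10.84 and 10.89 in TKO crypts and 10.51, 10.69 and 10.64 in QKO crypts. In villi it read 10.19, 9.94 and 10.07 in WT, 9.96, 9.80 and 9.87 in Rb, 10.75, 10.94 and 10.96 in TKO and 10.70, 10.84 and 10.98 in QKO. All arrays without E2f1-3 were higher than those with them. The differences were 0.70 ± 0.12 (TKO crypts), 0.82 ± 0.12 (TKO villi), 0.44 ± 0.12 (QKO crypts against Rb) and 0.97 ± 0.12 (QKO villi against Rb). Probe set 1417259_a_at gave 0.56, 0.65, 0.35 and 0.70 (each ± 0.12) without overlap in either compartment. Probe set 1453960_a_at gave 0.58, 0.84, 0.21 and 0.40 (each ± 0.15), without overlap in crypts and with overlap in villi. The fourth, 1431668_at, stayed between 3.31 and 4.17 on all arrays, below the median of all values (5.045), and its differences were -0.17, -0.22, 0.03 and 0.27 (each ± 0.14).

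Eif4g3, a scaffold of the cap-binding complex that starts translation, was higher without E2f1-3 by its bright probe set. On 1426833_at the values were 8.12, 8.23 and 8.0 in WT crypts, 7.80, 8.28 and 7.67 in Rb crypts, 8.81, 8.90 and 8.40 in TKO crypts and 9.06, 9.18 and 8.86 in QKO crypts. Villi read 7.95, 7.83 and 7.69 in WT, 7.57, 7.56 and 7.64 in Rb, 8.47, 8.47 and 8.21 in TKO and 9.19, 8.65 and 8.83 in QKO. No array without E2f1-3 fell to the level of those with them. TKO minus WT was 0.59 ± 0.17 in crypts and 0.56 ± 0.17 in villi, and QKO minus Rb 1.12 ± 0.17 and 1.30 ± 0.17. In villi the second difference less the first was 0.74 ± 0.24 (interval 0.25 to 1.24), and in crypts 0.53 ± 0.24 (0.04 to 1.02). Both are built from the differences that may have chosen the gene and are a description. The other 3 probe sets of Eif4g3 lay between 3.79 and 6.04, and none was called in any of the 4 comparisons by E2f1-3 status.

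Ece1, the enzyme that cleaves big endothelin to the active peptide, was lower without E2f1-3. Probe set 1455741_a_at ranged from 8.69 to 9.01 (median 8.92) on the 6 crypt arrays with E2f1-3 and from 8.14 to 8.64 (8.29) on the 6 without them. In villi it ranged from 8.73 to 9.25 (8.92) with them and from 8.25 to 8.55 (8.34) without them. These ranges did not overlap, and the differences were -0.64, -0.83, -0.49 and -0.35 (TKO minus WT in crypts and villi, QKO minus Rb in crypts and villi, each ± 0.12). The dimmer 1434177_at behaved otherwise. It read 6.88, 6.25 and 6.97 in WT crypts, 6.65, 6.19 and 6.79 in Rb crypts, 5.42, 5.50 and 5.67 in TKO crypts and 5.47, 6.13 and 5.85 in QKO crypts, without overlap. In villi it read 6.15, 6.23 and 5.73 in WT, 5.69, 5.88 and 5.74 in Rb, 5.56, 5.96 and 5.78 in TKO and 5.68, 5.54 and 5.70 in QKO, where the arrays overlapped. Its differences were -1.17 ± 0.20 in TKO crypts and -0.27 ± 0.20 in TKO villi, 0.90 ± 0.28 apart (interval 0.32 to 1.49). The third, 1441423_at, stayed between 3.31 and 3.91 with no difference above 0.11 in size.

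Kdf1, a regulator of epidermal differentiation, gave a different answer in each compartment by probe set. On 1417797_a_at the crypt values were 8.91, 8.85 and 8.82 in WT, 8.71, 8.62 and 8.85 in Rb, 9.95, 9.48 and 9.69 in TKO and 9.72, 9.93 and 9.40 in QKO, without overlap. Its villus values were 8.96, 8.91 and 9.27 in WT, 8.95, 9.39 and 9.23 in Rb, 9.62, 9.44 and 9.56 in TKO and 9.50, 9.63 and 9.22 in QKO, where QKO villi 3 lay among the arrays with E2f1-3. On 1417798_at the order was turned. Its crypt values, 8.05, 7.90 and 7.82 in WT, 7.86, 7.97 and 8.03 in Rb, 7.90, 7.84 and 7.73 in TKO and 7.96, 8.28 and 7.76 in QKO, overlapped. In villi it read 7.50, 7.54 and 7.58 in WT, 7.49, 7.61 and 7.43 in Rb, 8.11, 7.85 and 7.95 in TKO and 8.0, 8.12 and 8.40 in QKO, without overlap. QKO minus Rb in villi less that in crypts was -0.70 ± 0.22 for the first (interval -1.15 to -0.24) and 0.61 ± 0.19 for the second (0.22 to 1.01).

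Nbl1, a secreted antagonist of bone morphogenetic proteins of the DAN family, was lower without E2f1-3. Probe set 1448428_at ranged from 6.65 to 7.23 (median 6.75) on the crypt arrays with E2f1-3 and from 5.81 to 6.45 (6.00) on those without, and in villi from 6.88 to 7.50 (7.17) and from 6.41 to 6.68 (6.58). The ranges did not overlap. TKO minus WT was -0.67 ± 0.18 in crypts and -0.62 ± 0.18 in villi, and QKO minus Rb -0.83 ± 0.18 and -0.57 ± 0.18. Myom3, a protein of the M-band of striated muscle, was dim throughout. Its probe set 1439708_at ranged from 4.79 to 5.23 in crypts with E2f1-3 and from 4.20 to 4.68 without, and from 5.14 to 5.55 and from 4.47 to 4.90 in villi. The differences were -0.60, -0.73, -0.42 and -0.47 (each ± 0.15, in the order given for Ece1). These values lie around the median of all probe sets, where background makes up much of a signal.

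**Figure D2:**
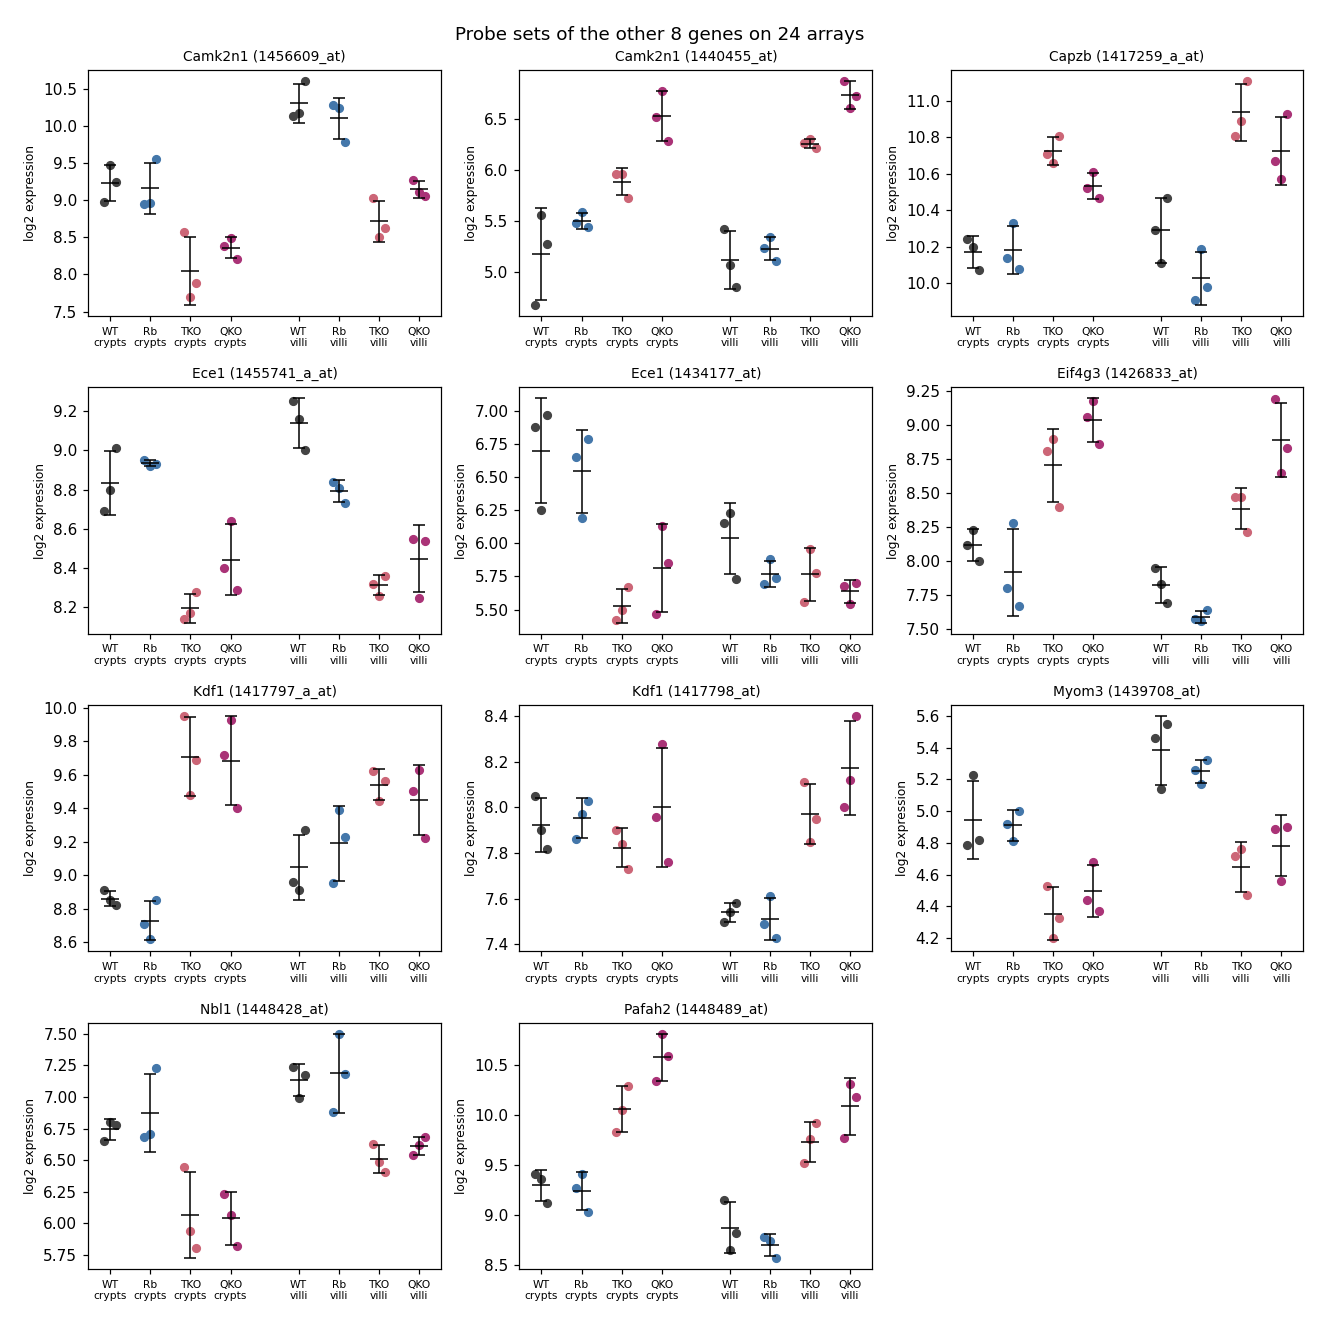
Deposited log2 values (vertical axes, each with its own scale) of 11 probe sets of the other 8 genes on the 24 arrays by group (horizontal axes); points are arrays and bars the mean ± SD of 3. The 2 probe sets of Camk2n1 move in opposite directions, and those of Kdf1 separate by E2f1-3 status in crypts for 1417797_a_at and in villi for 1417798_at.

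Across the 19 probe sets, 15 had the same sign in all 4 comparisons by E2f1-3 status (1 of them, Eif4g3 1430578_at, at 0.00 in TKO villi), 6 were called in all 4 and 5 in none. Called means a Benjamini-Hochberg adjusted p under 0.05 in the limma fit over all 45037 probe sets. In TKO minus WT 13 of 19 were called in crypts (7 higher, 6 lower), against 6.77% of all probe sets (2.18% higher, 4.59% lower). In villi 10 were called (5 higher, 5 lower), against 6.38% (4.19% higher, 2.19% lower). In QKO minus Rb 10 were called in crypts, against 14.1%, and 10 in villi, against 17.1%. In QKO minus WT 12 were called in crypts, against 11.2%, and 10 in villi, against 12.2%. Since the genes may have been chosen on these differences, nothing is read from the counts. The TKO comparison shares its WT arrays with the QKO minus WT comparison. Sets of 6 WT and Rb arrays and 6 TKO and QKO arrays did not overlap for 14 probe sets in crypts (8.24% of all probe sets) and 11 in villi (3.37%), and 10 did not overlap in either compartment with the same direction, 5 higher and 5 lower (0.859%).

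**Figure D3:**
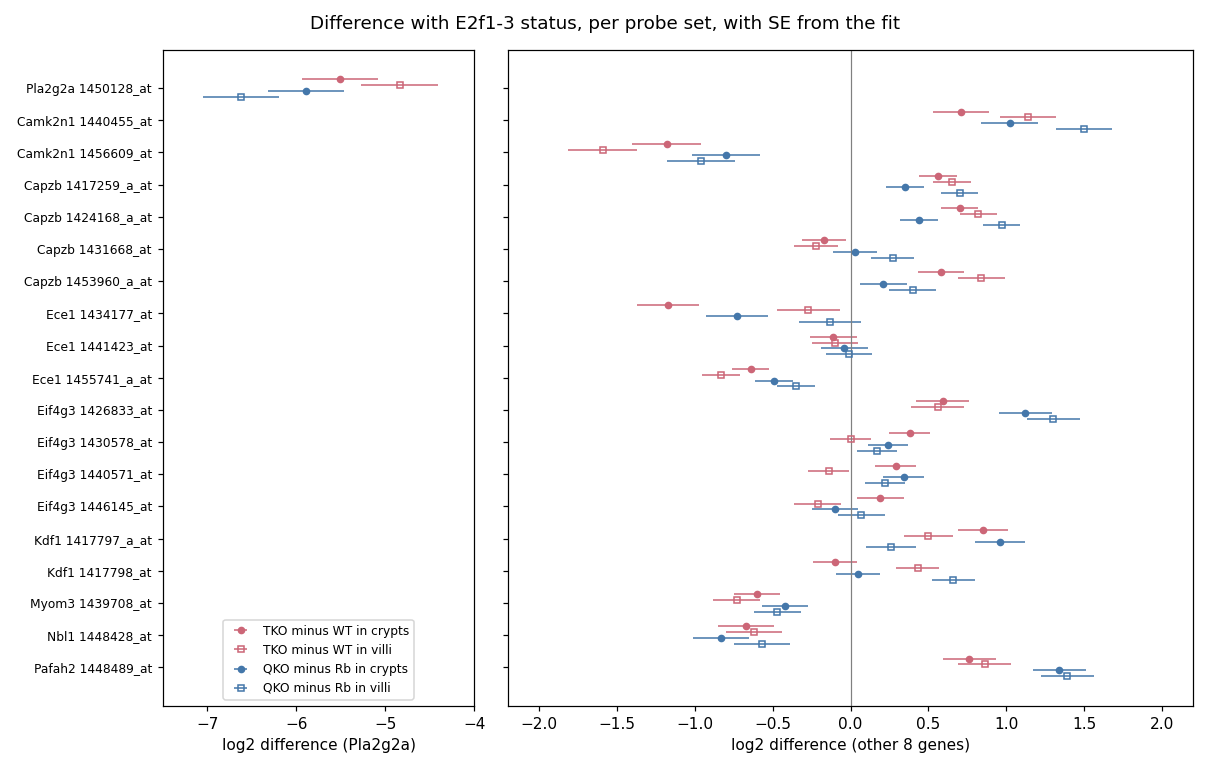
Log2 difference (horizontal axis, with SE of the fit) of each of the 19 probe sets (vertical axis) for TKO minus WT (red) and QKO minus Rb (blue), in crypts (filled circles) and villi (open squares); Pla2g2a has its own scale on the left. The 4 marks lie on 1 side of 0 for 15 probe sets, and Pla2g2a spans -4.84 to -6.62.

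The counts of villus less crypt differences are a description too, since likeness between the compartments may have entered the choice. Limma called 0 of 19 probe sets for TKO minus WT in villi less crypts (3.95% of all probe sets were called), with 3 at an unadjusted p under 0.05. For QKO minus Rb 0 were called (5.1% of all), with 4 at an unadjusted p under 0.05. The number called for QKO minus Rb rose from 0 to 2 after quantile normalization or centring arrays on their medians, and to 3 with dim probe sets left out. For TKO minus WT the number called rose from 0 to 2 with centring or array weights. The standard error of such a difference had a median of 0.21, so small differences between compartments would not have been detectable. E2f2 itself did differ by compartment in TKO minus WT. In crypts its probe set 1436434_at fell with loss of E2f1-3 (TKO minus WT -1.01 ± 0.19, adjusted p = 0.0021 by limma), and in villi TKO minus WT was 0.36 ± 0.19 (adjusted p = 0.35), a difference between compartments of 1.37 ± 0.27 (adjusted p = 0.0045). In QKO minus Rb it fell by limma in crypts (-0.99 ± 0.19, adjusted p = 0.001) and in villi (-1.62 ± 0.19, adjusted p = 6.4e-06). Villi less crypts, that difference was -0.63 ± 0.27 (adjusted p = 0.18). The probe set still read 7.94, 8.45 and 8.43 in TKO crypts. The sources used here do not give where its probes lie relative to the deleted part, so these values check no deletion.

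With loss of Rb few of the 19 were called, and few or none of all probe sets in crypts, so nothing is read from these counts. In Rb minus WT in crypts limma called 0 of 19 and 0% of all probe sets, and 0 of 19 had an unadjusted p under 0.05. In villi it called 0 of 19, against 9.97% of all, with 3 at an unadjusted p under 0.05. In QKO minus TKO 0 were called in crypts (0.768% of all), with 3 at an unadjusted p under 0.05, and 1 in villi, Pla2g2a (5% of all). As a description, (QKO minus Rb) minus (TKO minus WT) had 0 calls in crypts (0.0311% of all; 2 at an unadjusted p under 0.05) and 1 in villi, Eif4g3 (10.5% of all), which was lost on leaving out any one of 11 of the 12 villus arrays. Rb minus WT and QKO minus TKO less their crypt values each gave 0 calls in villi (3.01% and 0.0488% of all), with 1 and 0 at an unadjusted p under 0.05.

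Between compartments the 19 differed in part. Limma called 7 in WT (29.4% of all probe sets), 4 in Rb (13.1%), 4 in QKO (25%) and 0 in TKO (8.33%; 4 at an unadjusted p under 0.05). Ece1 1434177_at fell from crypts to villi in WT (-0.66 ± 0.20, adjusted p = 0.014 by limma) and in Rb (-0.77 ± 0.20, adjusted p = 0.013), and Kdf1 1417798_at fell in WT (-0.39 ± 0.14, adjusted p = 0.035) and Rb (-0.44 ± 0.14, adjusted p = 0.033). Pafah2 fell in Rb (-0.54 ± 0.17, adjusted p = 0.039) and QKO (-0.50 ± 0.17, adjusted p = 0.036). Nbl1 rose in QKO (0.58 ± 0.18, adjusted p = 0.021), and Myom3 rose in WT (0.43 ± 0.15, adjusted p = 0.029). With WT crypts 3 and Rb crypts 2 left out the counts were 5 in WT and 1 in Rb. With single arrays left out they ran from 2 (without WT crypts 1) to 5 in WT, from 1 (without Rb crypts 1) to 4 in Rb and from 2 (without QKO villi 3 or QKO crypts 3) to 4 in QKO. Each of the calls of Ece1, Kdf1, Pafah2, Nbl1 and Myom3 named here was lost on leaving out at least 1 array, with adjusted p-values of up to 0.18 for Pafah2 in Rb. Kdf1 in Rb was also lost with sex as a covariate (-0.34, adjusted p = 0.21). Kdf1 in WT was also lost after quantile normalization (-0.15, adjusted p = 0.34). The calls of Pla2g2a in WT and QKO and of Camk2n1 1456609_at in WT were kept under all alternatives run.

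Genes near E2f2 that were taken by position alone were then counted. The 60 measured genes on each side held 220 probe sets, 19 of them those above. With those left out, 24 of 201 (11.94%) were called in TKO minus WT in crypts and 26 (12.94%) in villi, beside 7.88% and 7.35% of all 34945 probe sets with 1 gene. For QKO minus Rb the shares were 22.39% in crypts and 31.84% in villi, beside 16.4% and 19.4%. Rb minus WT, in which both sides keep E2f2, gave 0% in crypts and 15.92% in villi, beside 0% and 11.7%, so in villi the share in the window was also above that of all probe sets where E2f2 status did not differ. QKO minus TKO, in which both sides lack E2f2, gave 1.99% in crypts and 9.453% in villi, beside 0.91% and 5.26%. The same window around E2f1 gave 8.88% and 5.792% in TKO minus WT in crypts and villi, that around E2f3 7.143% in both, and that around Rb1 5.556% and 10.26%.

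**Figure D4:**
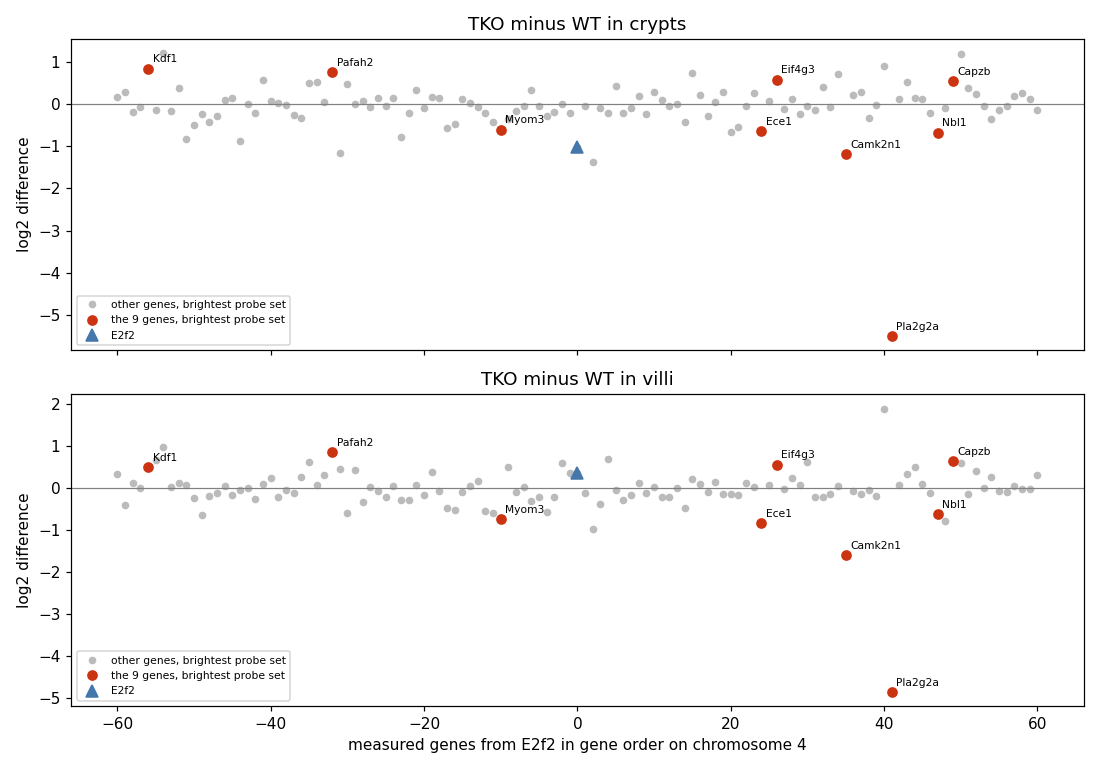
Log2 difference of TKO from WT (vertical axes) for the brightest probe set of each measured gene within 60 genes of E2f2, by its place in the gene order of chromosome 4 (horizontal axis), in crypts (top) and villi (bottom). Pla2g2a stands apart at -5.51 and -4.84, and E2f2 lies at -1.01 and 0.36.

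Named neighbours were the genes nearest E2f2 that were called in the same direction in TKO minus WT in both compartments. Mul1, a mitochondrial ubiquitin ligase 34 genes after E2f2 and next to Camk2n1 in this order, was higher on 1434118_at by 1.19 ± 0.16 in TKO crypts, 1.55 ± 0.16 in TKO villi, 1.69 ± 0.16 in QKO crypts against Rb and 2.3 ± 0.16 in QKO villi against Rb. Slc66a1, a lysosomal amino acid transporter next to Capzb at 50 genes after E2f2, was higher by 1.19, 0.59, 1.17 and 1.25 (each ± 0.15). Akr7a5, an aldehyde reductase 51 genes after E2f2, was higher on the dim 1458300_at by 0.68, 0.76, 0.89 and 1.07 (each ± 0.20). On the other side probe sets of Rsrp1, 23 genes before E2f2, were lower. On 1448538_a_at the differences were -2.0, -1.21, -1.95 and -1.45 (each ± 0.31). On 1435357_at they were -1.22, -1.3, -1.03 and -1.0 (each ± 0.27). The choice fixed their direction in TKO minus WT, and in QKO minus Rb these probe sets kept that direction in both compartments. Other probe sets of the same genes were less uniform: the brightest of Mul1, 1451401_a_at, differed by 0.06 in TKO villi, that of Akr7a5, 1438315_x_at, by -0.14 there, and that of Rsrp1, 1417001_a_at, by -0.27 there and by 0.14 in QKO villi against Rb. Nipal3, Tcea3 and Hnrnpr, 16 genes before and 2 and 4 genes after E2f2, did not keep their size: Nipal3 1429241_at differed by -0.92 and -0.87 in TKO and by -0.34 and 0.10 in QKO (each ± 0.22), Tcea3 by -1.37 ± 0.23 in TKO crypts and -0.47 ± 0.23 in QKO villi, and Hnrnpr 1437526_x_at by 0.69 ± 0.19 in TKO crypts and 0.00 ± 0.19 in QKO villi.

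Probe sets whose arrays did not overlap by E2f1-3 status in the same direction in both compartments were counted along the genome, a description chosen after the values had been seen. Counts that include the 9 genes rest in part on how these were chosen, so each is also given without them, which takes away genes near E2f2 only. Around E2f2 there were 16 of 220 (7.273%), 10 of them of the 9 genes and 6 of the other 201 (2.985%), beside 1.01% of all probe sets with 1 gene. The other 6 belonged to Rsrp1, Hp1bp3, Mul1, Slc66a1 and Akr7a5. The window around E2f1 held 5 of 259 (1.931%), that around E2f3 1 of 196 (0.5102%) and that around Rb1 4 of 234 (1.709%). Within E2f2's own window the nearest 20 genes before E2f2 held 1 of 44, in Myom3, and the nearest 20 after it 0 of 41, and the stretches from 21 to 40 and from 41 to 60 genes after E2f2 held 6 of 38 (15.79%) and 6 of 33 (18.18%), of which 4 each were of the 9 genes. Without them these stretches held 2 of 29 (6.897%) and 2 of 27 (7.407%).

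**Figure D5:**
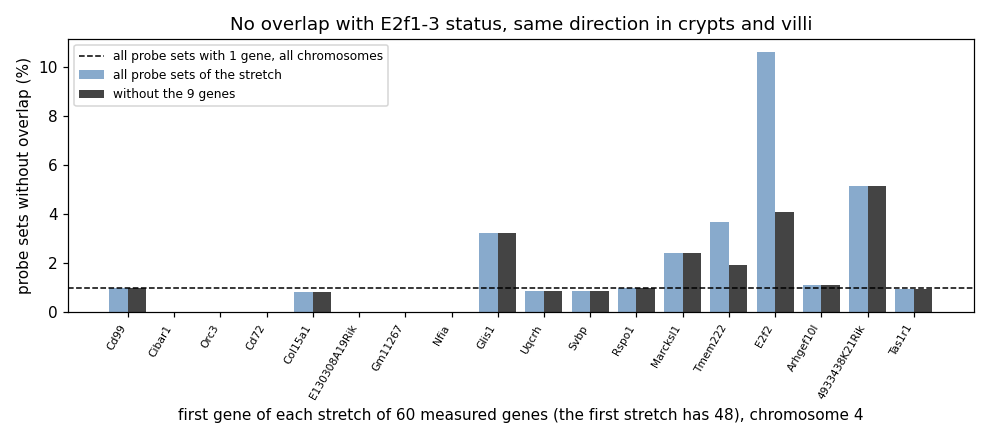
Share of probe sets (vertical axis, %) whose 6 TKO and QKO arrays do not overlap the 6 WT and Rb arrays, in the same direction in crypts and villi, per stretch of 60 measured genes along chromosome 4 (horizontal axis, by first gene; the first stretch has 48). Pale bars take all probe sets, dark bars leave out the 9 genes, and the dashed line marks 1.01% over all probe sets with 1 gene. The stretch that starts at E2f2 holds 10.62% with the 9 genes and 4.082% without them, and that from 120 genes after E2f2 holds 5.147%.

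The 60 genes that begin with E2f2 held 12 of 113 (10.62%), of which 8 were of the 9 genes, and without these 4 of 98 (4.082%). The 60 genes before them held 4 of 108 (3.704%), and without Pafah2 and Myom3 2 of 104 (1.923%). The stretch from 120 genes after E2f2, which holds none of the 9 genes, had 7 of 136 (5.147%). That was above the share of the stretch that begins with E2f2 without the 9 genes, and below its share with them. Nothing was left out of the stretch from 120 genes after E2f2, so neither comparison is of like with like. Over the whole of chromosome 4 the share was 38 of 2094 (1.815%), the highest of the chromosomes counted, a rank that rests in part on the choice of the 9 genes. Without the 9 genes it was 28 of 2075 (1.349%), below chromosome 10 (1.448%), from which nothing was left out.

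Genes on several chromosomes had a pattern like that of Pla2g2a. Of genes other than the 9, Acat1 (mitochondrial acetyl-CoA acetyltransferase, chromosome 9) had the highest Pearson correlation with Pla2g2a over the 24 arrays, 0.919, then Atoh1 (the transcription factor of secretory cells, chromosome 6, 0.913), Ctse (cathepsin E, chromosome 1, 0.905), Faf1 (chromosome 4, 0.905) and Rab10 (chromosome 12, 0.903). The lowest were Wdfy1 (-0.963, chromosome 1), Slc66a1 (-0.939, chromosome 4), Thnsl2 (chromosome 6, -0.917), Oxnad1 (chromosome 14, -0.913) and Ctsl (cathepsin L, chromosome 13, -0.906). These are descriptions over arrays that share groups.

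Relatives of the 9 genes by function were counted by the brightest probe set of each gene. Over all 18029 genes so counted, 5.46% were called in TKO minus WT in crypts, 8.54% in villi, and 16.1% and 20.5% in QKO minus Rb. Of 16 measured phospholipase A2 genes 0 were called in TKO minus WT in crypts and 3 higher in villi, and in QKO minus Rb 3 higher in crypts and 4 higher and 3 lower in villi. Pla2g4a, the cytosolic enzyme that frees arachidonic acid, was higher in TKO villi by 1.38 ± 0.29 (adjusted p = 0.0046 by limma) and in QKO crypts against Rb by 1.32 ± 0.29 (adjusted p = 0.0036). Of 5 genes around CaMKII, the kinase that Camk2n1 inhibits, 0 were called in TKO in either compartment, and 2 rose in QKO crypts and 3 in QKO villi against Rb; Camk2b rose by 1.03 ± 0.29 (adjusted p = 0.02) and 1.74 ± 0.29 (adjusted p = 0.00029). Among 8 actin capping genes 1 rose in TKO in each compartment, and Capg, which caps actin filaments, rose on 1450355_a_at by 1.25 ± 0.31 in crypts (adjusted p = 0.017) and 1.61 ± 0.31 in villi (adjusted p = 0.0024). Cd2ap, an adaptor that binds capping protein, fell on 1420906_at in TKO crypts (-0.83 ± 0.18, adjusted p = 0.0069) and in QKO minus Rb in crypts (-0.90 ± 0.18, adjusted p = 0.0016) and villi (-0.98 ± 0.18, adjusted p = 0.00071), and rose in TKO villi (0.64 ± 0.18, adjusted p = 0.036). Camk2g, a CaMKII subunit, rose on 1423941_at by 0.78 ± 0.20 in QKO crypts (adjusted p = 0.0093) and 1.03 ± 0.20 in QKO villi against Rb (adjusted p = 0.00088).

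Of 6 endothelin genes 0 were called in TKO crypts and 1 rose in TKO villi, Ece2 (0.76 ± 0.20, adjusted p = 0.026 by limma), which also rose in QKO crypts against Rb (0.90 ± 0.20, adjusted p = 0.0045). Of 9 genes of the cap-binding complex 0 were called in TKO crypts and 2 rose in TKO villi, with Eif4a1, its RNA helicase, up by 0.90 ± 0.15 on 1430980_a_at (adjusted p = 0.00045). In the list of 17 genes of the DAN family and bone morphogenetic protein signalling 1 fell in TKO in each compartment. Of the 5 relatives of Pafah2, the 5 M-band genes and the 4 epithelial partners of Kdf1, 0 were called in TKO in either compartment. In QKO minus Rb in villi 1 relative of Pafah2 was called higher and 1 lower. Edn2, an endothelin, fell in QKO villi against TKO (-1.29 ± 0.23, adjusted p = 0.0019). Pabpc1, the poly(A)-binding protein, fell on 1418883_a_at from crypts to villi in WT (-0.97 ± 0.11, adjusted p = 1.2e-06), as did Bmp7 on 1418910_at (-1.83 ± 0.29, adjusted p = 5.4e-05), while the phospholipase Pla2g12b rose (1.34 ± 0.21, adjusted p = 4.4e-05). Bmpr2, a receptor of bone morphogenetic proteins, rose on 1434310_at in QKO crypts against Rb (0.53 ± 0.11, adjusted p = 0.0019) and fell on 1419616_at in QKO villi (-0.76 ± 0.19, adjusted p = 0.0081). Pafah1b1 rose on 1448578_at in QKO crypts against Rb (0.47 ± 0.12, adjusted p = 0.0096), and Pafah1b2 fell on 1422792_at in QKO villi (-0.53 ± 0.14, adjusted p = 0.0095). Of the M-band list, Ckm rose on 1444643_at from crypts to villi in WT (0.49 ± 0.16, adjusted p = 0.027) and Myom1 in QKO (0.75 ± 0.24, adjusted p = 0.026).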

How the data were processed

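Total RNA (Trizol) gave biotinylated cRNA from 3 ug, per the labels' protocols. Each deposited value is the log2 expression of a probe set (2.286 to 14.89, median 5.045). The authors' summarisation and normalization were not given in the sources used here, and no further normalization was applied. Of 45101 probe sets 64 controls were left out, 34945 had 1 gene, 932 several and 9160 none in the platform annotation. Symbols of 34741 were updated through RefSeq (GRCm38.p6) and 204 kept. The number of arrays limits the precision.

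Groups came from the labels. Limma 3.58.1 (R 4.3.3) fitted 1 mean per group over 24 arrays with an intensity trend (residual df 16, median prior df 5.577), and p-values were adjusted by Benjamini-Hochberg over 45037 probe sets in each comparison. Standard errors pool the spread of all groups. The method was tested on simulated data with 200 changed probe sets. Figures were drawn with matplotlib 3.10.9.

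The genes, lists and tests were chosen with earlier results of these data known. Named were all 9 genes, up to 6 genes on each side nearest E2f2 called the same way in TKO minus WT in both compartments, the 5 most and 5 least like Pla2g2a by Pearson correlation, and up to 2 called genes per list of relatives by the smallest p. Marker lists were Paneth, goblet, enterocyte, stem, T cell, B and plasma cell, macrophage, smooth muscle, fibroblast, endothelial, neuron and pancreas. The log2 of the summed signal of enterocyte genes was 16.62 to 16.86 in WT crypts and 17.29 to 17.36 in WT villi.

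Array numbers were checked for pairing of crypts with villi by the correlation of deviations from group means. Same-numbered arrays gave 0.5544, 0.4916 and 0.5927 in TKO and 0.4989, 0.2335 and 0.2904 in QKO, so the numbers pair these by the values. They gave -0.0336, 0.0289 and 0.0344 in WT and 0.015, -0.0467 and -0.2141 in Rb. By Eif2s3y, Rb crypts 1 and 3 were female and Rb villi 1 and 3 male, so the numbers do not pair those. The main fit used no pairing. The alternatives were normalization, filters, probe set choice, samples fitted, array weights, replicate block, sex and arrays left out.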

Additional observations from a re-analysis of the deposited data

Results flagged for a closer look

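Eif4g3 1426833_at met the rule for a difference between groups. In villi QKO minus Rb less TKO minus WT was 0.74 ± 0.24 log2 units (adjusted p = 0.047 by limma). The gene may have been chosen on these very differences, so the p-value is given as what met the rule and not as support. All 3 QKO villus arrays (9.19, 8.65 and 8.83) lay above all 3 TKO villus arrays (8.47, 8.47 and 8.21). With single villus arrays left out the value ran from 0.59 to 0.86, and the call was lost in 11 of 12 such omissions (adjusted p up to 0.11). It was also lost with centred arrays (0.63, adjusted p = 0.1), with sex as a covariate (0.72, adjusted p = 0.073) and without QKO crypts 2 and QKO villi 3 (0.77, adjusted p = 0.06). In crypts the same difference was 0.53 ± 0.24 (adjusted p = 0.44).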

How the results depend on the processing

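Counts are of the 19 probe sets called by limma. TKO minus WT in crypts (13) became 7 with probe sets averaged per gene, 8 with only the groups compared and 8 with sex, and 9 to 11 with single arrays left out. QKO minus Rb in crypts (10) became 5 with sex, and 7 to 11 with single arrays left out. QKO minus WT in crypts (12) became 7 with the mean and 6 with sex, and 8 to 11 with single arrays left out. Rb minus WT in villi (0) became 1 with quantile normalization, dim probe sets left out, or QKO crypts 2 and QKO villi 3 left out, and 2 with array weights. QKO minus TKO in villi (1) became 2 with quantile normalization, centring or weights, 0 with only the groups compared, sex, or WT crypts 3 and Rb crypts 2 left out, and 0 to 1 with single arrays left out.

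TKO minus WT in villi less crypts (0) became 2 with centring or weights, and 0 to 1 with single arrays left out. The same for QKO minus Rb (0) became 2 with quantile normalization or centring, 3 with dim probe sets left out, 1 with no trend, weights, sex or QKO crypts 2 and QKO villi 3 left out, and 0 to 1 with single arrays left out. Probe sets called there were of Kdf1, Ece1 and Capzb. Villi minus crypts in WT (7) became 4 with 1 probe set per gene and 3 with the mean, and 2 to 5 with single arrays left out. In Rb (4) it became 2 with the mean and 1 without WT crypts 3 and Rb crypts 2, and 1 to 4 with single arrays left out. In TKO (0) it became 1 with dim probe sets left out, 1 probe set per gene, the mean or sex, and 2 with weights, and 0 to 2 with single arrays left out. In QKO (4) it became 2 with only the groups compared or without QKO crypts 2 and QKO villi 3, and 2 to 4 with single arrays left out. (QKO minus Rb) minus (TKO minus WT) in villi (1) became 0 with centring, sex or those 2 QKO arrays left out, 3 with dim probe sets left out and 2 with weights, and 0 to 2 with single arrays left out.

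The replicate block used the array numbers in every genotype, also in WT and Rb, where the values did not pair them. With the replicate block, TKO minus WT gave 13 in crypts and 11 in villi and QKO minus Rb 10 in each, and QKO minus WT in crypts gave 11. As a random block it gave 1 for villi minus crypts in TKO and 5 in Rb, and as a fixed term 2 for QKO minus TKO in villi and 2 for (QKO minus Rb) minus (TKO minus WT) in villi. Of 1453 values of single probe sets under an alternative, 1259 kept direction and call, 194 kept direction and lost the call, and 0 reversed. These values belong to 82 results, all called in the main fit, so calls gained under an alternative were not counted. Most of the 82 were of TKO minus WT, QKO minus Rb or QKO minus WT, on which the genes may have been chosen. The tally is therefore a description only. The causes of the changes under alternatives were not tested.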
